A study of Mus musculus with 16 samples.

Results

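The genes described here are 10 C-type lectin receptors of myeloid cells, Clec4a1, Clec4a2, Clec4a3, Clec4d, Clec4e, Clec4n, Clec5a, Clec7a, Clec9a and Clec12a, chosen by their symbols from the 47069 genes of the count table. Bone marrow-derived macrophages (BMMs) were grown from C57BL/6 mice of 8 to 10 weeks in medium conditioned by L929 cells, the usual source of macrophage colony-stimulating factor. The cells were primed overnight with IFNγ (10 ng/mL), then activated for 1 hr with Salmonella LPS (100 ng/mL) and IgG-opsonized ovalbumin immune complexes (LPS/ICs). Either DAPT (25 µM), a γ-secretase inhibitor (GSI) that blocks the cleavage of Notch receptors, or its vehicle DMSO (0.01%) was present. Each condition had 2 libraries, and a sample without IFNγ, LPS or ICs, or without DMSO or DAPT, was not analysed here, so every value below is from primed and activated cells. All 10 genes passed the filter on low counts and were tested with the rest of the 13211 genes.

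C-type lectin receptors are surface proteins whose lectin-like domain binds sugars, lipids or debris of dead cells. The activating ones reach the kinase Syk, either through a tyrosine motif in their own tail, as Clec7a (Dectin-1) and Clec9a (DNGR-1) do, or through an adaptor, which is Fcer1g for Clec4e (Mincle), Clec4d (MCL) and Clec4n (Dectin-2) and mainly Tyrobp for Clec5a. Syk then acts through Card9, Bcl10 and Malt1 on NF-κB. The inhibitory ones, among them Clec12a (MICL) and Clec4a2 (DCIR), carry a tail motif that recruits phosphatases such as Ptpn6.

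Library totals ran from 42694655 to 56932059 counts. Levels are in CPM, counts per 1000000 counts after scaling of the library sizes, and a gene with no count in a library could still be present at up to 0.0527 to 0.0703 CPM (3 counts), a bound for counting error only. Of 8 macrophage markers, Adgre1, Csf1r, Cd68, Lyz2 and Cd14 were at 848 CPM or more in every library. The 8 summed to 12278 and 12485 CPM with DMSO and to 9489 and 10414 CPM with DAPT, and 6 of them fell and 1 rose. The 10 neutrophil markers were all under 1 CPM in every library. The labels do not say whether the replicates came from separate mice or cultures, so the p-values measure only the spread between these libraries. In RNA from a whole culture, fewer cells of a type and less RNA per cell cannot be told apart.

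With DAPT, 6 of the 10 receptors fell, 2 rose and 2 did not pass the test (edgeR's quasi-likelihood test, FDR under 0.05). The background in this comparison was high: 40.8% of all genes tested passed, 21.9% as lower and 19.0% as higher. The median log2 fold change was -0.45 over the receptors and 0.01 over all genes tested. In 9 of the 10 receptors both DAPT libraries lay on 1 side of both DMSO libraries, against 70.6% of all genes tested. No receptor passed the additional threshold of an absolute log2 fold change above 1.5, which 2.91% of the genes did.

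**Figure D1:**
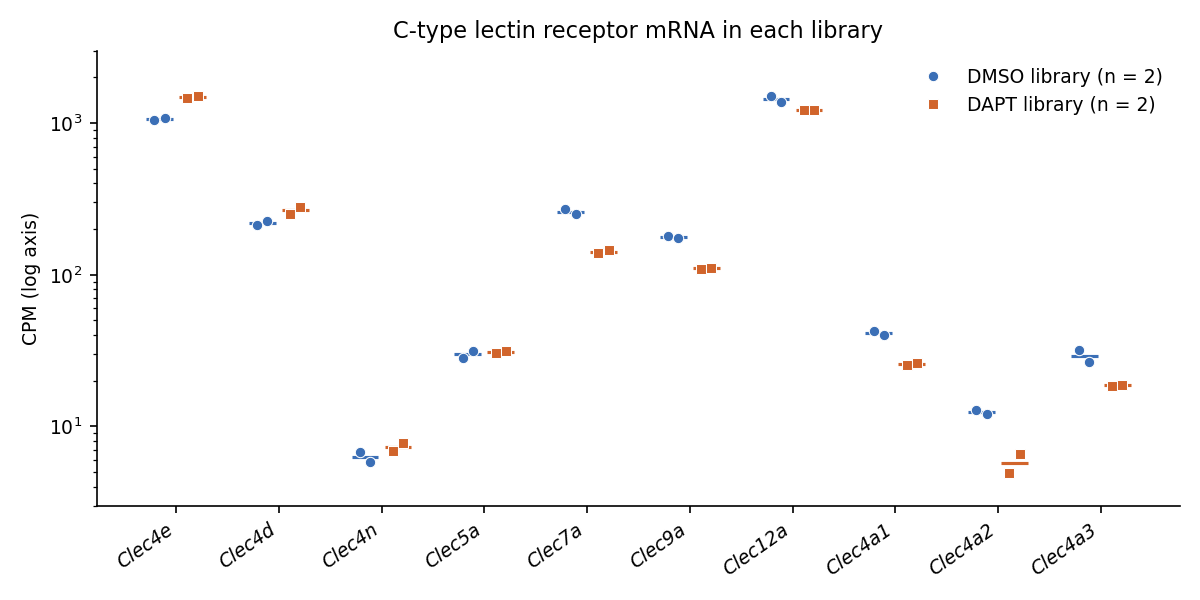
CPM of each receptor (vertical axis, log scale) in the 2 DMSO libraries (circles) and the 2 DAPT libraries (squares), with a horizontal line at each group's mean. The squares lie above the circles for Clec4e and Clec4d and below them for the 6 genes from Clec7a to Clec4a3.

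The 2 receptors that rose, Clec4e and Clec4d, are neighbours on chromosome 6 and work as partners at the cell surface. Clec4e, which recognizes mycobacterial cord factor and a protein released from dead cells, had 1047 and 1088 CPM with DMSO and 1462 and 1505 CPM with DAPT. Both DAPT libraries were higher, and the groups were far apart compared with the spread within either. The log2 fold change was 0.47 ± 0.0731 (SE), a 1.39-fold rise (FDR = 2.7e-05).

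Clec4d, which pairs with Clec4e and helps bring it to the surface, was measured at 213 and 225 CPM with DMSO and at 253 and 281 CPM with DAPT. The groups did not overlap, although the DAPT libraries differed from each other by about as much as they did from the nearer DMSO library. Its rise was smaller, at 0.29 ± 0.0735 on the log2 scale or 1.22-fold (FDR = 0.00383).

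Clec4n, the receptor for fungal mannans that lies on the other side of Clec4d, was 1 of the 2 genes that did not pass. It had 6.83 and 5.82 CPM with DMSO and 6.91 and 7.78 CPM with DAPT. The DAPT values were the higher ones, but the first of them lay close to the first DMSO value. The log2 fold change was 0.22 with a 95% interval from -0.03 to 0.47 (FDR = 0.147), so that a rise as large as that of Clec4d was within its bounds.

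Clec5a, a receptor for sugars of viruses and bacteria, had 28.4 and 31.4 CPM with DMSO and 30.4 and 31.4 CPM with DAPT. These values overlapped, and it was the only receptor whose groups did so. Its log2 fold change of 0.05 had an interval from -0.12 to 0.21 (FDR = 0.673), and it turned to -0.02 when DMSO replicate 1 was left out.

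The upstream sequences of the 2 risen genes are shown beside those of Clec7a and Clec12a, which fell, so that the start regions of receptors that moved in opposite directions can be read together. Each is the 250 bases before the RefSeq start site in the GRCm38.p6 build, written 5′ to 3′ on the strand of the gene. Capitals mark matches to the motifs searched, and lower case marks all other bases. The windows are chr6:123289872-123290121 (minus strand) for Clec4e, chr6:123261857-123262106 (plus strand) for Clec4d, chr6:129472780-129473029 (minus strand) for Clec7a, and chr6:129349994-129350243 (plus strand) for Clec12a.
Clec4e: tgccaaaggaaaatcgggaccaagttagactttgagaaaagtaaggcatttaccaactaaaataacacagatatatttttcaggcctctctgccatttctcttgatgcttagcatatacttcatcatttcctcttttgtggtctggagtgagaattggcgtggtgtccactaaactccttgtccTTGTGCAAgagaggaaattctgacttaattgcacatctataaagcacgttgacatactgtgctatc
Clec4d: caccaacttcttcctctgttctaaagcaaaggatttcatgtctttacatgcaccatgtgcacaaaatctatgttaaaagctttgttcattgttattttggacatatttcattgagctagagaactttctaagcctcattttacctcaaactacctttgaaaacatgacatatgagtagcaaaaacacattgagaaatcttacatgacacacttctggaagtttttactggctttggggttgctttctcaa
Clec7a: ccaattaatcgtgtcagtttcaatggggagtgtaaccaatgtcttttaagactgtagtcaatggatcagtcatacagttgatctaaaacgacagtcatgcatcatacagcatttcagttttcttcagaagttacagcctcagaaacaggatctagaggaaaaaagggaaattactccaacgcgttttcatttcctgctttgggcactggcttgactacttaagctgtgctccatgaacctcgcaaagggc
Clec12a: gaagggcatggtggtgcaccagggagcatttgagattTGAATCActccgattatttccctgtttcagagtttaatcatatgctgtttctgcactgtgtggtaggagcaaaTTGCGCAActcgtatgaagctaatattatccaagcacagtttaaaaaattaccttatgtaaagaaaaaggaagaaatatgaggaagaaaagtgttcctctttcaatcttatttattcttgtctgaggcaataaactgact

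The capitals in Clec4e are a match to the C/EBP motif TTGCNNAA on the opposite strand, at positions -66 to -59, where -1 is the last base before the start. Clec12a held the same motif at -140 to -133 and the AP-1 motif TGANTCA at -213 to -207, and the sequences of Clec4d and Clec7a held no match. The Clec12a window lies inside the span that the annotation used here gives the gene (chr6:129342691-129365303). Its motifs are thus upstream of the RefSeq start only. The window of Clec4a2 also lies inside the annotated span of its gene. Over 32851 windows of this length in RefSeq, 9.56% held the C/EBP motif and 6.75% the AP-1 motif, both strands counted. The other motifs were searched in the windows of the 9 receptors that the table of start sites listed. The RBPJ motif TGGGAA, the core sequence bound by the DNA-binding partner of cleaved Notch, was in none of them and in 21.6% of all windows. The NF-κB motif, searched in a loose form that 45.8% of all windows hold, was in Clec4a1 alone among the receptors, where matches on both strands overlap. The PU.1 motif GAGGAAGT (2.44%) and the interferon-stimulated response element (2.98%) were in none. A match describes letters in this window and is not a binding site.

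Clec7a and Clec9a, the 2 receptors with their own Syk-binding motif, both fell. Clec7a, the β-glucan receptor of macrophages, had 270 and 250 CPM with DMSO and 139 and 145 CPM with DAPT. Both DAPT values were far below both DMSO values. The log2 fold change was -0.87 ± 0.0714, which is 1.83-fold lower (FDR = 6.53e-09), and it had the smallest FDR of the 10. The annotation used here types Clec7a as a polymorphic pseudogene, a class for genes that are intact in some strains only.

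Clec9a, which binds actin filaments exposed on dead cells, had 181 and 174 CPM with DMSO. With DAPT it had 109 and 111 CPM. Replicates lay within a few CPM of each other, and the groups did not overlap. Its log2 fold change was -0.69 ± 0.0691, or 1.61-fold lower (FDR = 1.2e-07).

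Clec9a is best known as a marker of conventional dendritic cells, so the markers of those cells are given beside it. Of 9 such markers, 4 fell (Itgax, Batf3, Xcr1 and Cd24a) and none rose, and their summed level was 46.6 and 47.1 CPM with DMSO and 28.4 and 28.5 CPM with DAPT. Xcr1 and Batf3, which mark the same subset of these cells as Clec9a, were counted in every library. Xcr1 had 5.02 and 4.64 CPM with DMSO and 3.77 and 3.44 CPM with DAPT, and Batf3 had 4.58 and 5.22 CPM with DMSO and 3.27 and 3.24 CPM with DAPT. Itgax, which macrophages also express, had 35.2 and 35.3 CPM with DMSO and 19.9 and 20.8 CPM with DAPT. Other markers were near 0, with no count of Cd209a in any library, at most 0.0414 CPM of Flt3 and at most 0.335 CPM of Zbtb46. Clec9a alone was above the sum of the 9 markers in every library. The part of such cells in its fall was not tested. A stretch of 184 exon bases on the same strand belongs both to Clec9a and to its neighbour Clec1b, which had only 41 to 89 counts per library.

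Clec12a, an inhibitory receptor for uric acid crystals, was the most abundant of the 10 per length with DMSO. It had 1511 and 1388 CPM with DMSO and 1218 and 1223 CPM with DAPT. The DAPT libraries were the lower ones and nearly equal, while the DMSO libraries differed more from each other. The log2 fold change was -0.25 ± 0.0748 (FDR = 0.0116), the smallest of the 6 falls. Without DMSO replicate 1 it was -0.19 and no longer passed (FDR = 0.165), so the call for Clec12a rests on that library.

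The other inhibitory receptor, Clec4a2, fell most of all on the log2 scale. It had 12.8 and 12.1 CPM with DMSO and 4.94 and 6.54 CPM with DAPT. Both DMSO libraries were well above both DAPT libraries, which were the more scattered pair. The log2 fold change was -1.12 ± 0.12, or 2.17-fold lower (FDR = 3.01e-07).

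Its relatives Clec4a1 and Clec4a3 moved the same way. Clec4a1 had 42.5 and 40.3 CPM with DMSO and 25.2 and 26.2 CPM with DAPT, a log2 fold change of -0.68 ± 0.0772 (FDR = 5.4e-07). Clec4a3 had 31.9 and 26.7 CPM with DMSO and 18.5 and 18.8 CPM with DAPT, a log2 fold change of -0.65 ± 0.0907 (FDR = 8.64e-06). In neither gene did the groups overlap. The coding sequence of Clec4a3 was 75.8% identical to that of Clec4a2 and 72.2% identical to that of Clec4a1, but neither Clec4a1 nor Clec4a3 had any 50-base window of exon sequence found in another gene. In Clec4a2, 6.69% of such windows were also in other genes, and how the counting split those reads is not given in the sources used here. No exon of the 10 receptors overlaps an exon of a gene on the other strand.

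Markers of other myeloid cells moved with the receptors that fell. Among the monocyte markers, Ccr2 fell from 47.4 and 45.6 CPM with DMSO to 12.3 and 14.3 CPM with DAPT, and Plac8 from 107 and 101 CPM to 58.3 and 66.7 CPM. Ly6c2 and F13a1, which define classical monocytes, were under 1 CPM in every library. Of 4 markers of plasmacytoid dendritic cells, Tcf4 fell and made up nearly all of their sum of 61.5 and 61.6 CPM with DMSO and 45.1 and 42.3 CPM with DAPT, while Siglech and Ly6d had no count. The part of such cells in the changes of the receptors was not tested.

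**Figure D2:**
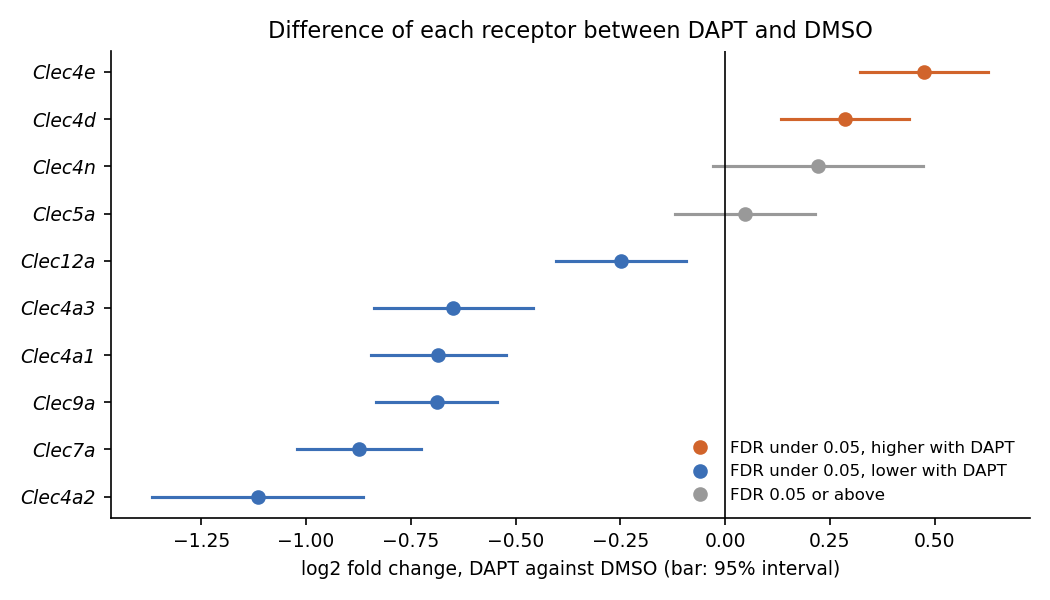
Log2 fold change of each receptor, DAPT against DMSO (horizontal axis), with bars for the 95% interval and colours for the outcome of edgeR's test. The intervals of Clec4n and Clec5a cross 0, those of Clec4e and Clec4d lie above it, and the remaining 6 lie below it, down to -1.12 for Clec4a2.

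Since counts grow with the length of a transcript, levels of different receptors were compared as CPM per kilobase of exon. With DMSO, Clec12a stood first at 262 per kilobase, followed by Clec4e at 215, Clec4d at 137 and Clec7a at 98.6. With DAPT, Clec4e stood first at 299 and Clec12a followed at 221. At the lower end, the ranges of Clec4n (4.45 per kilobase) and Clec4a2 (4.26) overlapped with DMSO. They no longer did with DAPT, where Clec4n had 5.17 and Clec4a2 had 1.96. For all other neighbours in the order, the ranges of the replicates did not overlap in either condition. The order below these top genes, from Clec4d down to Clec4a2, was the same in both. The same order was found with the length of the longest protein-coding transcript, although that length placed Clec12a at 579 and Clec4e at 424 per kilobase with DMSO. With the length of the longest transcript of any kind, Clec12a stayed first with DAPT, at 378 per kilobase against 309 for Clec4e. Which of them stood first with DAPT thus depended on the length used.

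The summed level of the 10 receptors hardly moved, while its make-up did. The sum was 843 and 821 per kilobase with DMSO and 804 and 836 with DAPT, which overlap. Clec4e made up 25.0% and 26.7% of it with DMSO and 36.6% and 36.3% with DAPT. The share of Clec7a went from 12.2% and 11.6% to 6.57% and 6.56%.

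These shifts were also seen within each library as ratios of counts, which do not depend on the scaling between libraries. For every count of Clec7a there were 3.87 and 4.35 counts of Clec4e with DMSO and 10.5 and 10.4 with DAPT. The ratio of Clec4e to Clec12a was 0.693 and 0.784 with DMSO and 1.20 and 1.23 with DAPT, so that Clec4e overtook Clec12a in counts. The ratio of Clec4e to Clec4d, the 2 genes that rose, moved less, from 4.91 and 4.84 to 5.78 and 5.36. No test was made on these shares and ratios, which follow from the values above.

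**Figure D3:**
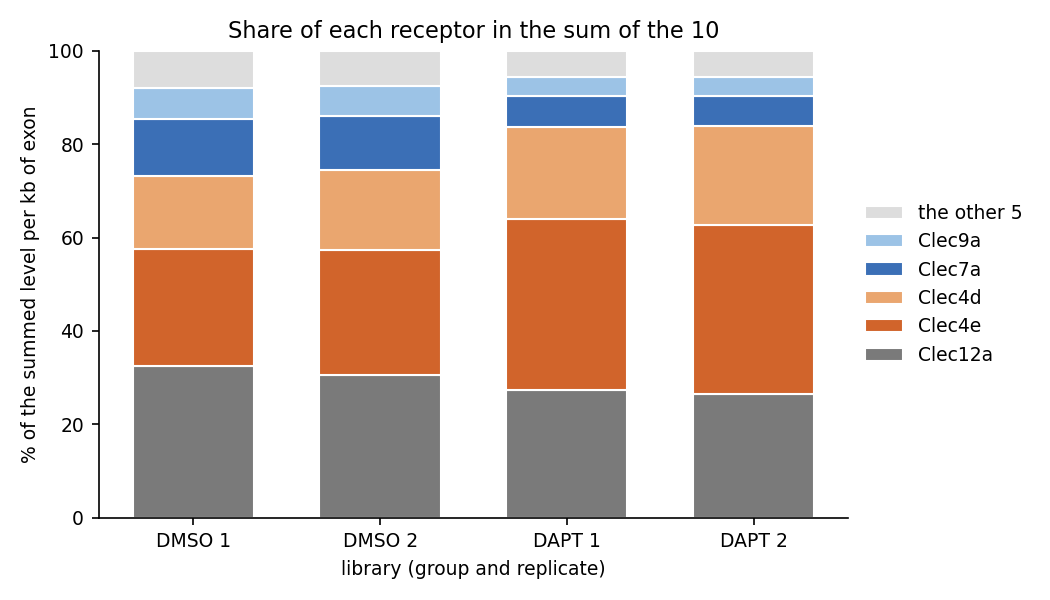
Share of each receptor in the summed CPM per kilobase of exon of the 10 (vertical axis, percent), 1 bar per library. Clec4e widens from 25.0% and 26.7% with DMSO to 36.6% and 36.3% with DAPT, while Clec7a, Clec9a and Clec12a narrow.

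Position was not part of the rule that chose the receptors. All 10 lie on chromosome 6, and 9 of them lie in 2 gene clusters. The first runs over 368 kb from Clec4a1 (chr6:122921848-122934619) to Clec4e (chr6:123281789-123289870), and the changes along it were split by position. Clec4a1, Clec4a3 and Clec4a2 fell, and all lie within the first 222 kb. Clec4b1, which lies between them and is not among the 10, fell as well, from 102 and 103 counts with DMSO to 22 and 33 with DAPT (log2 fold change -1.88 ± 0.252, FDR = 5.14e-06). At the other end, from 308 kb on, Clec4n did not pass, and Clec4d (chr6:123262111-123275265) and Clec4e rose. The remaining 6 genes of this stretch in the table had at most 5 counts in any library and were not tested.

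The second cluster covers 130 kb from Clec12a (chr6:129342691-129365303) to Clec7a (chr6:129461591-129472779), with Clec9a between them (chr6:129408862-129424763). All 3 fell. So did Clec1b (log2 fold change -0.69, FDR = 0.0182) and a sense-intronic transcript annotated within Clec9a, RP23-250E1.9 (-0.55, FDR = 0.00252). Both lie on the strand of Clec9a and share its exon bases or its intron, where reads of the genes cannot be told apart. The call for Clec1b was lost when any of DMSO replicate 1, DMSO replicate 2 or DAPT replicate 1 was left out (FDR = 0.0504, 0.0855 and 0.119), and with DESeq2 on all 4 libraries (adjusted p = 0.163). Clec1a, with 9 to 16 counts per library, did not pass, and Clec12b had 0 to 2 counts. Clec5a (chr6:40574894-40585821), which did not pass, lies far from both clusters.

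**Figure D4:**
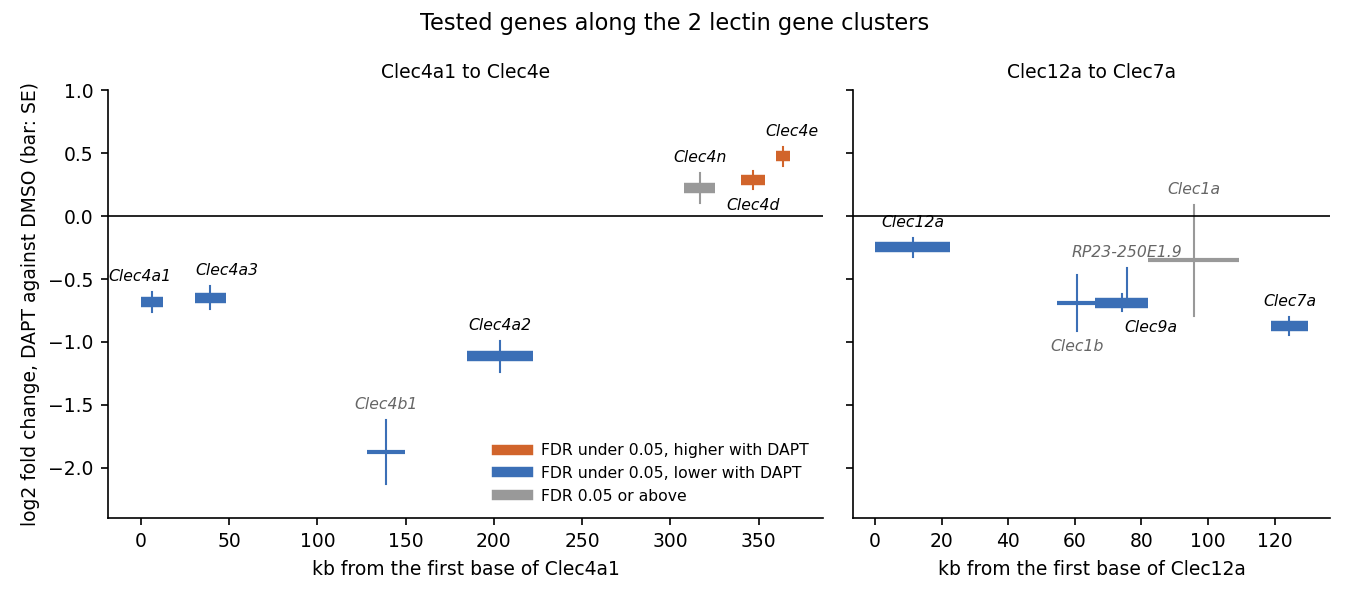
Log2 fold change, DAPT against DMSO (vertical axis, bars for the SE), of the tested genes along the 2 clusters, each drawn at its distance in kb from the first base of Clec4a1 (left) or Clec12a (right). Thick lines are the receptors described here and thin lines are their neighbours, and the 2 genes that rose stand at the right end of the first cluster.

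The adaptors of the activating receptors did not pass the test. Fcer1g, the partner of Clec4e, Clec4d and Clec4n, had 879 and 918 CPM with DMSO and 1048 and 906 CPM with DAPT. The groups overlapped, the log2 fold change was 0.12 (FDR = 0.238), and without DAPT replicate 2 it was 0.22 and passed (FDR = 0.0317). Tyrobp, the partner of Clec5a, had a log2 fold change of -0.13 (FDR = 0.163), and Hcst, an adaptor that can join it, of 0.08 (FDR = 0.604).

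Of 18 genes for Syk-CARD9 signalling, 3 rose, 6 fell and 9 did not pass. Of all genes tested, 40.8% passed, 19.0% as higher and 21.9% as lower. Syk, the kinase on which the activating receptors converge, had a log2 fold change of -0.15 (FDR = 0.112). Bcl10 at -0.05 and Malt1 at -0.02 did not pass either (FDR = 0.64 and 0.875). Card9, the adaptor that joins them, rose by 0.31 (FDR = 0.0038), a call lost without DMSO replicate 1 (0.21, FDR = 0.105). The kinase Src rose by 0.88 (FDR = 1.5e-07) and the exchange factor Vav1 by 0.43 (FDR = 5.96e-05). The kinase Lyn fell by 0.57 (FDR = 1.67e-06), the phospholipase Plcg2 by 0.46 (FDR = 1.58e-05) and Vav3 by 0.36 (FDR = 0.00178).

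Of the 6 tested genes that restrain this signalling, 4 fell and none rose, against 21.9% and 19.0% of all genes tested. Inpp5d, a lipid phosphatase, fell by 0.55 on the log2 scale (FDR = 3.98e-06). The phosphatase Ubash3b fell by 0.37 (FDR = 0.000242) and the ubiquitin ligase Cbl by 0.32 (FDR = 0.00113). Ptpn11, a phosphatase that also has activating roles, fell by 0.24 (FDR = 0.00914) and no longer passed without DMSO replicate 1 (FDR = 0.0702). Ptpn6, the phosphatase recruited by Clec12a and Clec4a2, had 443 and 441 CPM with DMSO and 547 and 463 CPM with DAPT. It did not pass (log2 fold change 0.19, FDR = 0.0587) but did so without DAPT replicate 2 (0.31, FDR = 0.00166).

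Exons of Lyn, Card9 and Ptpn6 overlap exons of genes on the other strand over 248, 87 and 195 bases, and since the strand setting of the counting is not given in the sources used here, reads of the overlapping genes cannot be told apart there.

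**Figure D5:**
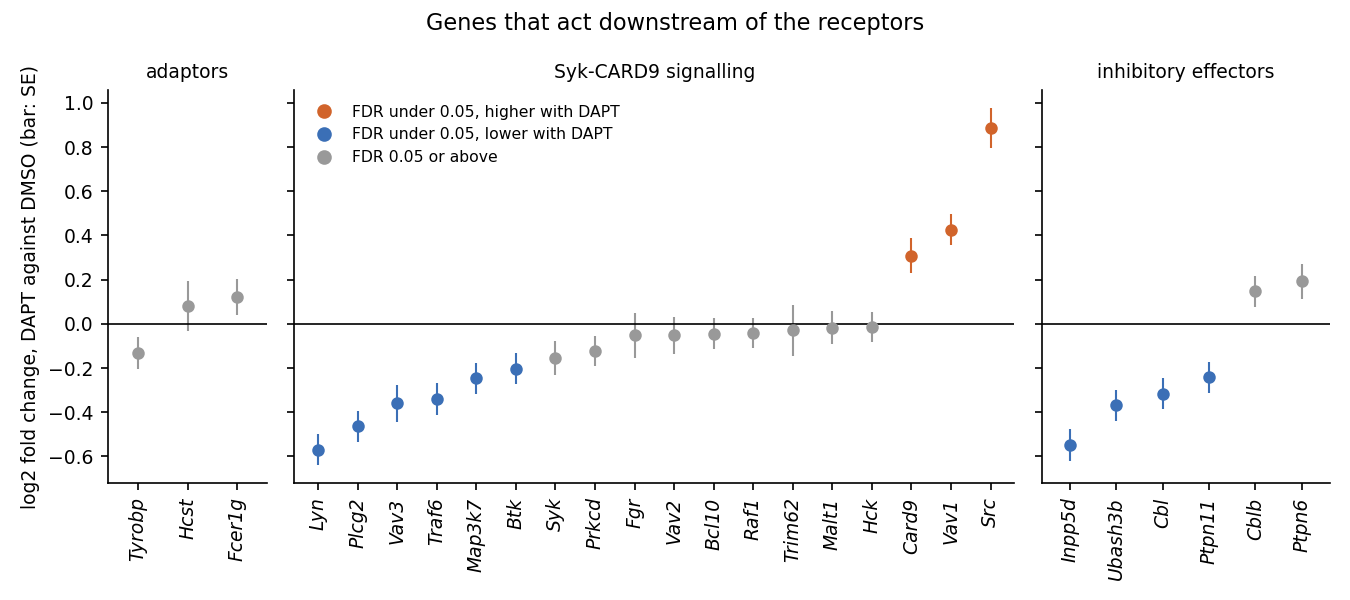
Log2 fold change, DAPT against DMSO (vertical axis, bars for the SE), of the adaptors, of 18 genes for Syk-CARD9 signalling and of 6 inhibitory effectors, with colours for the outcome of edgeR's test. The 3 adaptors, Syk, Bcl10 and Malt1 lie within 0.2 of 0, and Src stands highest at 0.88.

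Of 15 genes that this signalling is known to induce, 8 fell, 1 rose and 6 did not pass. Over all genes tested, 21.9% fell and 19.0% rose. LPS and immune complexes, which all cells received, induce many of them too, and the share of the receptors in their levels was not tested. The largest falls were those of Csf2 (log2 fold change -2.07), Il10 (-1.81), Il1b (-1.71) and Il12b (-0.97), with FDR = 6.81e-07, 1.11e-10, 4.81e-12 and 2.63e-08. Exons of Csf2 and Il1b overlap exons on the other strand over 96 and 25 bases, where the same limit holds. Csf3 also passed, with 10 and 12 counts against 2 and 1, which is too few for a fold change, and without DAPT replicate 2 it no longer did (FDR = 0.072). Egr1, named here because it was the only one to rise, was higher by 0.64 (FDR = 2.17e-06).

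The table held 23 other genes with Clec symbols, of which 7 were tested. Clec2d, a ligand of an inhibitory receptor of natural killer cells, was the most abundant of them per length, at 125 per kilobase with DMSO, close to the level of Clec4d, and it rose (log2 fold change 0.36, FDR = 0.000625). Clec10a, a receptor for galactose-type sugars, had 4.63 per kilobase with DMSO and fell by 1.03 (FDR = 4.42e-07). Clec16a, which despite its name is a regulator of autophagy, followed at 3.54 per kilobase and did not pass (-0.05, FDR = 0.652). The falls of Clec4b1 and Clec1b are given with the gene clusters above.

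Among 12 tested genes of other C-type lectins, 7 fell and 3 rose, against 21.9% and 19.0% of all genes tested. Mrc1, the macrophage mannose receptor, fell by 1.29 on the log2 scale (FDR = 3.54e-09) and Olr1, a receptor for oxidized lipoproteins, by 1.52 (FDR = 6.19e-10). Thbd, which binds thrombin, fell by 0.83 (FDR = 0.00458), a call that DESeq2 did not make (adjusted p = 0.0735), and Colec12, a scavenger collectin, by 0.72 (FDR = 2.02e-05). Ly75, an endocytic receptor of dendritic cells, rose by 1.58 (FDR = 7.43e-08), from 68 and 95 counts with DMSO to 239 and 238 with DAPT. Ly75 shares 249 exon bases with a gene on the other strand. The activation marker Cd69, named after its values were seen, rose by 0.53 (FDR = 8.7e-06).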

How the data were processed

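RNA-seq libraries of 2 DMSO and 2 DAPT replicates were analysed. The authors prepared stranded poly(A) libraries, sequenced them on a NextSeq system, used Trimmomatic against adapters, STAR (2.5.0a in the submitters' processing notes) for alignment and HTSeq for counting. The paper names mm10, and the notes also list mm9. The values the authors deposited are raw counts, without normalization. The HTSeq version, mode and strand setting are not given in the sources used here. All 16 count columns were used. The last number of a title was taken as a sequencing run, since differences among its 4 columns were of the size of sampling noise (chi-square per degree of freedom 1.01 to 1.03), and the 4 were summed.

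Genes were tested in edgeR 4.0.16 (R 4.3.3) with filterByExpr, TMM, glmQLFit and glmQLFTest on the groups. P-values were adjusted by Benjamini-Hochberg across 13211 genes (FDR). The SE is the log2 fold change divided by the square root of F. Scripts were tested on simulated data. Positions and lengths came from GENCODE M21 (GRCm38), which held 98.9% of the gene IDs, and upstream sequences from RefSeq (GRCm38.p6). Named genes were the 10 receptors, the adaptors, Syk, Card9, Bcl10, Malt1 and Ptpn6, the 5 largest changes of each list, and of other Clec genes also the 3 most abundant. The receptors and lists were chosen with earlier results of these data known. Alternatives were RLE or no factors, DESeq2 1.42.0, the likelihood ratio test, other filters, the replicate block, the 16 runs as samples, each library left out, genes without exons on the other strand, fold thresholds, and transcript length. Protein motifs were not analysed here. The result for 1 gene of the lists is not reported here.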

Additional observations from a re-analysis of the deposited data

How the results depend on the processing

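Over the alternatives, 131 of 140 values of single receptors kept their direction and their side of the threshold, 7 lost the call, 1 gained it and 1 turned. The turned value was that of Clec5a, which ran from -0.022 to 0.12 when 1 library was left out and was never called. Of the calls lost, 6 were lost against a 1.5-fold threshold (glmTreat), which left 2 receptors, Clec4a2 and Clec7a, and 1 was that of Clec12a without DMSO replicate 1. Adding the log2 fold change threshold of 1.5 left 0 receptors. Treating the 16 runs as samples added Clec4n (FDR = 0.0342), but runs are not replicates. DESeq2 called 8 receptors, the same ones, 32 of the 36 genes of the other lists, and 4063 genes in all. With genes that have no exons on the other strand, 3571 of 8976 genes were called, fewer because fewer were tested. Leaving out 1 library gave 7 to 8 receptors, of which 5 to 6 lower and 2 higher, 30 to 36 genes of the other lists and 4162 to 4978 genes in all; the group left with 1 library is then assumed to vary like the other. Malt1 ran from -0.12 to 0.086 and was not called. Fcer1g and Ptpn6 gained a call without DAPT replicate 2, and Ptpn6 also with no filter (FDR = 0.0262) and with the replicate block (FDR = 0.0138).

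With the replicate number as a block, 8 receptors, 38 genes of the other lists (36 in the report) and 6444 genes in all were called. The labels do not say that a number marks a shared mouse or day, and deviations of libraries with the same number correlated at r = 0.155 over 13211 genes, with only 2 pairs, so the numbers were not taken as a pairing. Depth limits the least abundant receptors most: the SE was 0.12 for Clec4n and Clec4a2, which had 239 to 688 counts per library, against 0.0731 for Clec4e. With n = 2, the spread within a group is a single difference.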
